A study of Mus musculus with 16 samples.

Results

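The cells described here are the descending thin limb cells of the mouse kidney, 876 of the 94436 cell barcodes that passed the limits on genes and mitochondrial RNA in 16 single-cell RNA libraries. They were chosen by a rule on raw counts of unique molecular identifiers (UMIs, one per captured RNA molecule). A barcode had to have 200 to 7000 detected genes, at most 50% mitochondrial UMIs, at least 2 UMIs of Aqp1, at least 2 UMIs in all of Bst1, Slc14a2, Fst, Sptssb and Epha7, and 0 UMIs of Cubn, Slc5a12, Pecam1, Pdgfrb and Ptprc, which mark proximal tubule, endothelial, mesenchymal and immune cells. The levels of these genes in the chosen barcodes therefore follow from the rule and are given without a test.

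The descending thin limb is the narrow, flat-walled part of the loop of Henle that carries filtrate from the proximal tubule down into the medulla. Its cells let water leave through aquaporin-1, the product of Aqp1, so that the filtrate is concentrated on the way down, and this water movement is part of the countercurrent system by which the kidney makes concentrated urine. Because the segment runs through salty, urea-rich tissue, its cells depend on organic osmolytes such as betaine, inositol, taurine and sorbitol, which they import or make to balance the salt outside.

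The mice were BTBR ob/ob, obese diabetic animals without functional leptin (called DN), and BTBR +/+ animals (called control), aged 6 or 12 weeks. Each combination of genotype, age and sex had 2 mice, and each mouse gave 1 library. By the study's methods the animals were podocyte-reporter mice, which carry a tdTomato/EGFP reporter at Gt(ROSA)26Sor and a Cre transgene active in podocytes. By design the reporter gives tdTomato in cells without Cre, thin limb cells included, and EGFP in podocytes. The renal papilla was cut away, and the minced tissue was first digested in warm collagenase and homogenized. Proximal tubules were then depleted on a Percoll gradient to enrich glomeruli, and cells were released on ice with a cold-active protease. Thin limb cells were thus a bystander of the preparation, and those of the papilla were not sampled. The study took 6 weeks as the onset and 12 weeks as the early stage of diabetic nephropathy and asked which kidney cells change.

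The libraries held 3853 to 10879 barcodes and fell into 2 sets by the cell barcodes they shared. The 4 female libraries with replicate number 1 (barcode list B) held 10510855 to 21728793 UMIs and shared 23 to 55 barcodes per pair, while the other 12 (barcode list A) held 83410397 to 125551519 UMIs and shared 7 to 32, and a library of one list shared at most 3 with a library of the other. No barcode of the 876 was shared between libraries. All male libraries belonged to list A, and each list held both genotypes in equal number.

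Each library gave 10 to 124 descending thin limb barcodes, 467 in the DN mice and 409 in the control mice. The share of barcodes that met the rule ran from 0.82% to 2.69% in the 4 libraries of list B, from 0.219% to 0.344% in the 4 female libraries of list A and from 0.297% to 1.53% in the 8 male libraries. Female libraries of list B were thus all above female libraries of list A, although their members were shallower, with a median of 3207.5 to 4835.5 UMIs per barcode against 6987 to 14063. The mean share was 1.11% ± 0.848 (SD, n = 8) in DN and 0.887% ± 0.696 (SD, n = 8) in control mice. This difference of 0.222 percentage points was within the spread between libraries (exact two-sided permutation test within age and sex, p = 0.634).

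At 6 weeks the mean share was 1.36% ± 1.03 (SD, n = 4) in DN and 0.748% ± 0.573 (SD, n = 4) in control mice (exact two-sided permutation test, p = 0.371), and at 12 weeks it was 0.862% ± 0.677 and 1.03% ± 0.867 (exact two-sided permutation test, p = 0.714, n = 4 each). The sign of the difference over both ages turned without DN female 6 weeks replicate 1 (-0.00411 percentage points), and that at 12 weeks turned without control female 12 weeks replicate 1 (0.248) or DN female 12 weeks replicate 2 (0.0508). Within list A the difference over both ages was 0.0672 percentage points (exact permutation p = 0.778, 6 libraries of each genotype) and within list B it was 0.687 (exact permutation p = 0.667, 2 of each, a design too small to reach 0.05).

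**Figure D1:**
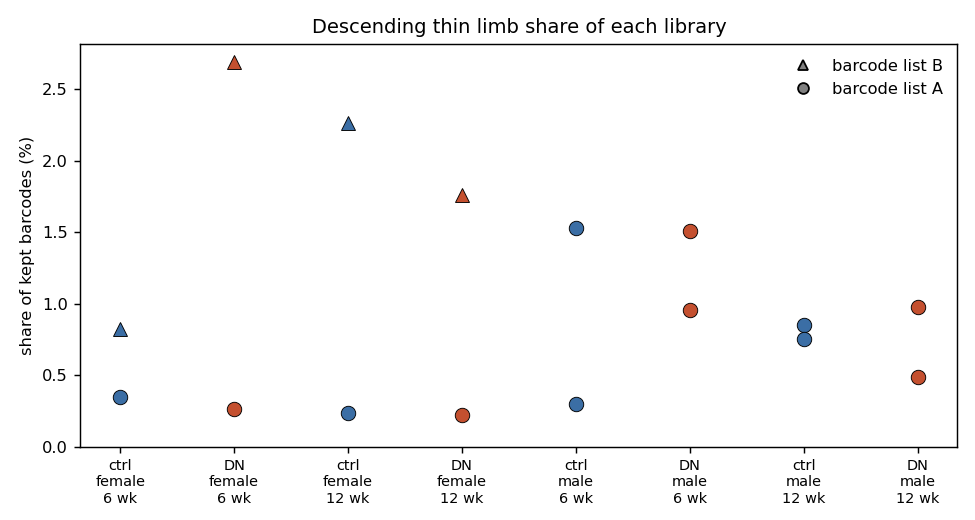
The share of kept barcodes (%, vertical axis) that met the descending thin limb rule is plotted for each of the 16 libraries by genotype, sex and age, with triangles for barcode list B and circles for list A. The triangles, from 0.82% to 2.69%, lie above the female circles, at most 0.344%, in each female group.

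The chosen barcodes carried the genes of the rule unevenly. Aqp1 was in all of them, Bst1, an ectoenzyme that cleaves NAD, in 87.2%, Fst, the secreted activin antagonist follistatin, in 54.8%, and Epha7, a receptor for ephrins, in 27.7%. Slc14a2, a urea transporter, was in 8.0% with 94 UMIs in all, and Sptssb gave 3 UMIs. The members were thus defined mainly by Aqp1 with Bst1 or Fst, and few carried the urea transporter.

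The label was checked on thin limb markers that the rule did not use. Their summed level was 5660 to 11470 CPM (counts scaled to a fixed total of UMIs, over the UMIs that a library's thin limb barcodes gave together), against a median of 296 CPM in endothelial barcodes, and was above the endothelial level of the same library in 16 of 16 libraries. Most of this sum was Cryab, a small heat shock protein, with a mean of 6435 CPM. Slc4a11, a membrane transporter of the bicarbonate transporter family, had 519.7 CPM against 1.11 CPM in endothelial barcodes, and Angpt2, an angiopoietin, 312 CPM against 27.9 CPM, each above the endothelial level in 16 of 16 libraries. The transcription factor Osr2 had a mean of 228 CPM, against at most 9.59 CPM in thick ascending limb, proximal tubule and endothelial barcodes. Jag1, a Notch ligand, had 76.8 CPM and was above the endothelial level in 1 of 16 libraries. Cryab, Slc4a11, Angpt2, Osr2 and Cdh13 were above the thick ascending limb level in 16 of 16 libraries and Jag1 in 15 of 16. Ptgds went the other way, with 59.6 CPM against 112 CPM in the thick ascending limb, and was above it in 3 of 16. Of the 9 listed markers only Tacr1 was at 0 UMIs in all 16 libraries.

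Markers of other cells were low but present. The 10 proximal tubule markers summed to 20.6 to 1265 CPM (median 434) in control and 70.3 to 492 CPM (median 135) in DN libraries, led by Kap with a mean of 277 CPM. The 6 thick ascending limb markers summed to 141 to 3114 CPM (median 263) in control and 98.3 to 433 CPM (median 154) in DN libraries, led by Umod. The 3114 CPM stood in control female 6 weeks replicate 2, with 21 barcodes, and the next control library was at 347 CPM. The summed proximal tubule level was below that of endothelial barcodes of the same library, which should lack these RNAs, in 16 of 16 libraries, and the thick ascending limb level was above it in 8 of 16. Thin limb barcodes had to lack Cubn and Slc5a12 and endothelial barcodes did not, so the proximal tubule order partly follows from the rule. Principal cell markers reached 942 CPM, intercalated cell markers 478 CPM, distal convoluted and connecting tubule markers 565 CPM, mesangial and smooth muscle markers 525 CPM, immune markers 397 CPM, podocyte and parietal markers 134 CPM, endothelial markers 92.9 CPM and red cell markers 72.1 CPM in the highest library.

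At the edge of the rule, the 69 barcodes that only just met it had 4466 CPM of Aqp1 and 4662 CPM of Cryab, and the 807 well inside it had 5765 and 6688 CPM. Outside it, the 34 barcodes with 1 UMI of Aqp1 had 110 CPM of Aqp1, 7481 CPM of Cryab and 3454 CPM of the principal cell gene Aqp2, while the 79 with 1 UMI of the other genes had 10757 CPM of Kap. These values describe the threshold and were not tested.

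Raw UMIs were summed per library and tested with edgeR's quasi-likelihood test, which gave adjusted p-values by the Benjamini-Hochberg method over the 5688 genes that passed the filter on low counts. All differences below are log2 fold changes of DN over control with their standard error (SE). Over both ages, 20 genes passed an adjusted p of 0.05, which is 0.352% of the genes tested, and 349 had an unadjusted p under 0.05. The p-values measure the spread between mice, with 1 library each. Of the 20, 11 were higher in DN (0.193%) and 9 lower (0.158%). Sult1d1, Sgk1 and Tsc22d3 were among those that rose, and the inhibitors of DNA binding Id1, Id2 and Id3 among those that fell. With the replicate number as a block, 51 genes passed (33 higher, 18 lower), and without the term for the barcode list 9 passed. Leaving out 1 library at a time gave 13 calls (without control male 12 weeks replicate 2) to 35 (without control female 6 weeks replicate 2).

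Sult1d1, a cytosolic sulfotransferase that conjugates catecholamines, had the largest log2 fold change of the 20 (chromosome 5, 87554645 to 87569027, minus strand, GRCm38). At 6 weeks its level was 20.6, 31.7, 12.98 and 19.6 CPM in the control libraries and 193, 258, 107 and 83.7 CPM in the DN libraries. At 12 weeks it was 11.3, 7.20, 24.8 and 23.5 CPM in control and 133, 165, 92.2 and 105 CPM in DN. Each DN library lay above each control library at both ages, and the 2 genotypes did not overlap over all 16 libraries. Only 2 of the 5688 genes were higher in DN without overlap over both ages (0.0352%), Sult1d1 and Ube2g2, a ubiquitin-conjugating enzyme whose own difference had an adjusted p of 0.179 in edgeR.

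The log2 fold change of Sult1d1 was 2.70 ± 0.197 (SE) over both ages, 2.82 ± 0.276 at 6 weeks and 2.58 ± 0.281 at 12 weeks (edgeR quasi-likelihood test, Benjamini-Hochberg adjusted p = 2.77e-08, 6.32e-06 and 4.24e-05). Sult1d1 RNA was also abundant elsewhere, with a mean of 1441 CPM in proximal tubule and 364 CPM in thick ascending limb barcodes. Endothelial barcodes, which should lack it, held 18.2 to 64.3 CPM in control and 42.4 to 114 CPM in DN libraries, and the thin limb level was above theirs in 7 of 16 libraries. In the control mice the thin limb mean of 19.0 CPM was below the endothelial mean of 45.5 CPM, and in the DN mice the thin limb mean of 142 CPM was above the endothelial mean of 71.8 CPM. The part of free RNA in this result was not tested.

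Sgk1 encodes a kinase that corticosteroids and hypertonic medium induce and that raises sodium transport (chromosome 10, 21882184 to 21999903, plus strand). At 6 weeks it was at 20.6, 50.7, 17.3 and 24.0 CPM in control and at 161, 180, 95.4 and 183 CPM in DN libraries, without overlap. At 12 weeks it was at 17.0, 21.6, 48.3 and 35.3 CPM in control and at 32.5, 144, 92.2 and 98.3 CPM in DN libraries, where 1 DN library lay within the control range. Without overlap at 6 weeks were 0.475% of all genes as higher and 0.721% as lower in DN. The log2 fold change of Sgk1 was 2.60 ± 0.298 at 6 weeks and 1.98 ± 0.215 over both ages (edgeR, Benjamini-Hochberg adjusted p = 5.00e-05 and 2.00e-05). At 12 weeks it was 1.36 ± 0.308, with an adjusted p of 0.124 in edgeR and of 0.0177 with the replicate block.

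Tsc22d3 encodes the glucocorticoid-induced leucine zipper protein GILZ. At 6 weeks it was at 82.4, 15.9, 10.1 and 8.73 CPM in control and at 231, 47.3, 78.8 and 68.3 CPM in DN libraries. In each pair of the same sex and replicate number the DN library was higher, but control female replicate 1 stood above all DN libraries except female replicate 1. Its log2 fold change was 2.39 ± 0.396 at 6 weeks, 0.77 ± 0.416 at 12 weeks and 1.58 ± 0.291 over both ages (edgeR, Benjamini-Hochberg adjusted p = 0.00985, 1 and 0.00991). The change at 6 weeks was not shown to differ from that at 12 weeks, since no gene passed for the difference of the DN effect between ages in this fit.

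At 6 weeks Sult1d1, Sgk1 and Tsc22d3 were the 3 genes called (0.0527% of 5688, all higher), and 212 genes had an unadjusted p under 0.05. Sult1d1 and Sgk1 kept this call in 16 of 16 fits without 1 library. Tsc22d3 kept it in 12 of 16 and lost it without the term for the barcode list. With the replicate block 8 genes were called at 6 weeks, 5 higher and 3 lower. Among them were Nptx1 at 2.23 (adjusted p = 0.0298 in edgeR), Kap at -2.96 (adjusted p = 0.002), Kl at -1.64 (adjusted p = 0.00148) and Tmem86a at -1.15 (adjusted p = 0.0298).

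**Figure D2:**
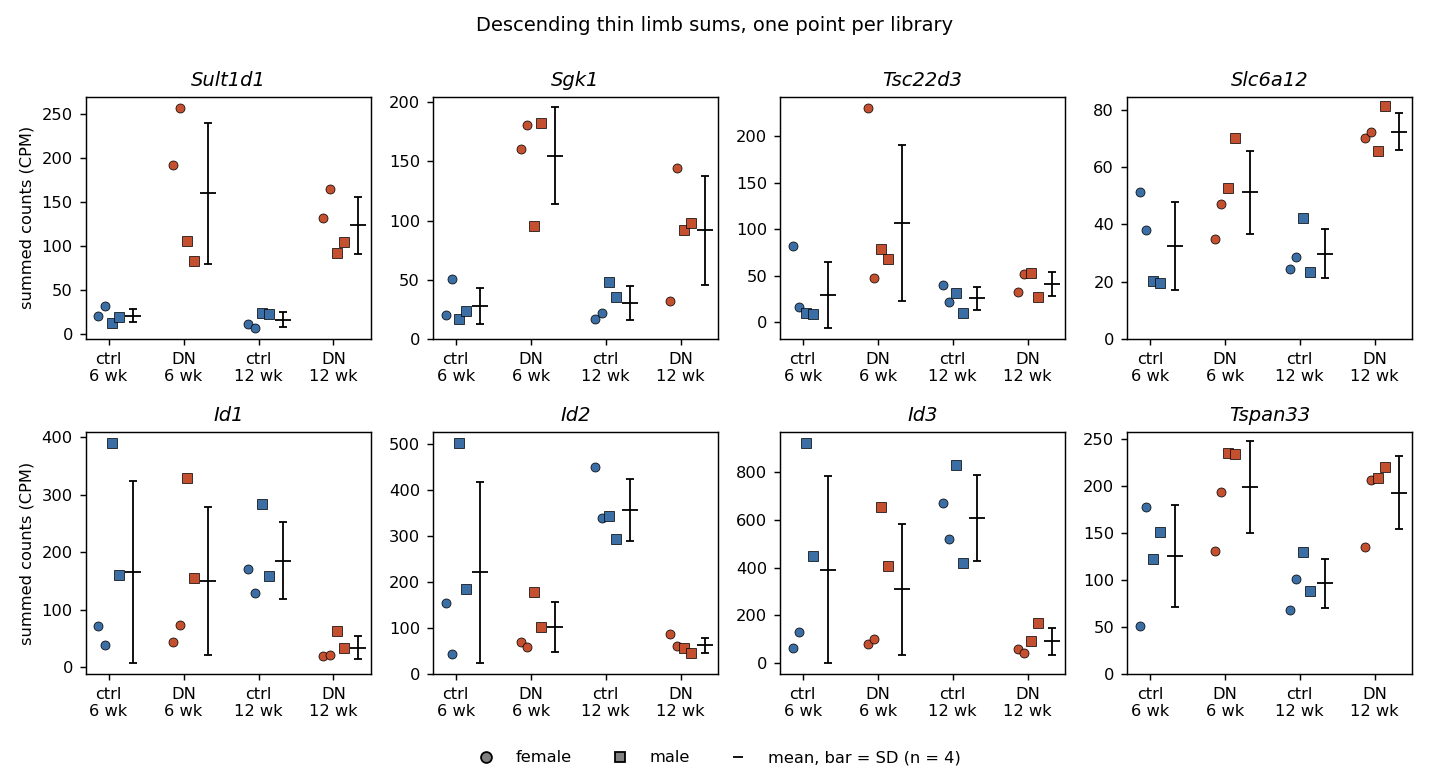
Levels of 8 called genes in the descending thin limb sums (CPM, vertical axes) are plotted for each library by genotype and age, with circles for females, squares for males, and the mean with SD of 4 libraries beside them. The DN libraries of Sult1d1, 83.7 to 258 CPM, lie above all control libraries, and those of Id1, Id2 and Id3 lie below them at 12 weeks.

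The promoters of 3 genes that rose and 1 that fell were picked, out of 8 genes with an entry, because motifs of corticosteroid receptors, of the osmotic stress factor NFAT5 and of the SMAD proteins lie in them. Each sequence holds the 250 bases before a RefSeq transcript start (GRCm38.p6), 5′ to 3′ on the strand of the gene, with the match in capitals. The motifs were looked for on both strands after the results were known. Sgk1 is shown at chr10:21993640-21993889 (plus strand), Tsc22d3 at chrX:140600523-140600772 (minus), Slc6a12 at chr6:121342324-121342573 (plus) and Id2 at chr12:25096093-25096342 (minus).
Sgk1: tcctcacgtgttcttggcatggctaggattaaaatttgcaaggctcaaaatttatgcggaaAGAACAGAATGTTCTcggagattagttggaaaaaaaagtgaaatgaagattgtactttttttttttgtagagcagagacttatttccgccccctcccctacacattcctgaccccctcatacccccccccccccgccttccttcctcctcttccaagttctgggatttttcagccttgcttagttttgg
Tsc22d3: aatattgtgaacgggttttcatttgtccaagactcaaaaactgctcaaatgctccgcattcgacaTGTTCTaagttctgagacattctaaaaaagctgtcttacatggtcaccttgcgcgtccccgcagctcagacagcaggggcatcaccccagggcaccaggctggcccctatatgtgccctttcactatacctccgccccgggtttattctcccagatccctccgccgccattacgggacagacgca
Slc6a12: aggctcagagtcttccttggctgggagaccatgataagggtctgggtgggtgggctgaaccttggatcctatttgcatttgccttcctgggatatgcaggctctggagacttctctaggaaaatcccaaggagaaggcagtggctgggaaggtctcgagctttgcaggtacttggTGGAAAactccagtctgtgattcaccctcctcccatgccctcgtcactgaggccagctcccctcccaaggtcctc
Id2: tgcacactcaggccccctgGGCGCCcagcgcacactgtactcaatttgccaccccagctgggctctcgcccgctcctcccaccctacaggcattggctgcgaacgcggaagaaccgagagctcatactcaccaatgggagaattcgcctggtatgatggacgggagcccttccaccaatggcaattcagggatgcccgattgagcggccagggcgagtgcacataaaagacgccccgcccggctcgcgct
The Sgk1 match is the palindrome of glucocorticoid and mineralocorticoid receptors, AGAACA and TGTTCT with any 3 bases between them, and starts 189 bases before the transcript start. It was in 1 of the 6 windows of Sgk1 and in 3 of 32851 windows of all genes (0.00913%). The Tsc22d3 match, 185 bases before the start, is TGTTCT, which is also the right arm of that palindrome, in 1 of 3 windows and in 16.1% of all windows. The Slc6a12 match, 75 bases before the start, is the NFAT5 core TGGAAA, in 1 of 5 windows and in 18.6% of all windows. The Id2 match, 231 bases before the start, is the SMAD core GGCGCC, in its only window and in 9.59% of all windows, while the window of Id3 had none. A match describes the letters of the window and shows neither binding nor a cause. Other matches were the NFAT5 core in 2 of the 6 windows of Sgk1, TGTTCT in 3 of these 6 and TGTTCT in the only window of Tspan33, and the windows of Sult1d1 and Slco2a1, 1 each, held none of the 4 motifs. Id1, Akr1b3 and Nptx1 had no entry in the table.

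At 12 weeks 6 genes were called (0.105%), Sult1d1, Tspan33 and Slco2a1 higher (0.0527%) and Id1, Id2 and Id3 lower (0.0527%), and 255 had an unadjusted p under 0.05. With the replicate block 21 genes were called, 13 higher and 8 lower, and these took in Sgk1, Rtn1 at 1.04 (adjusted p = 0.011 in edgeR), Anxa3 at 0.98 (adjusted p = 0.0423), Kap at -2.41 (adjusted p = 0.0144) and Kl at -2.36 (adjusted p = 0.00213).

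The Id proteins bind basic helix-loop-helix transcription factors and keep them off DNA, and bone morphogenetic proteins (BMPs) induce their genes through SMAD proteins. Id3 was at 671, 518, 829 and 419 CPM in the control libraries at 12 weeks and at 56.8, 41.3, 93.5 and 170 CPM in the DN libraries. Id2 was at 450.3, 338, 343 and 293 CPM in control and at 86.5, 61.9, 56.8 and 47.5 CPM in DN. Id1 was at 171, 129.5, 284 and 159 CPM in control and at 18.9, 20.7, 63.2 and 33.9 CPM in DN. For all 3 genes each DN library at 12 weeks was below each control library, as were 1.2% of all genes. The log2 fold changes at 12 weeks were -2.72 ± 0.328 for Id3, -2.47 ± 0.336 for Id2 and -2.29 ± 0.386 for Id1 (edgeR, Benjamini-Hochberg adjusted p = 1.19e-04, 5.31e-04 and 0.00925). The calls of Id2 and Id3 at 12 weeks held in 16 of 16 fits without 1 library and that of Id1 in 12, being lost without control female 12 weeks replicate 1, control male 12 weeks replicate 1, DN female 12 weeks replicate 1 or DN male 12 weeks replicate 2. The Id1 call was also lost in barcode list A alone, with sums of at least 20 barcodes, in the robust fit and in Fst-zero barcodes. Except for the robust fit, these held fewer libraries, and a lost call there does not show a smaller change.

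At 6 weeks the same genes overlapped between the genotypes. Id3 was at 61.8, 130.0, 923 and 449 CPM in control and at 78.8, 98.8, 654 and 407 CPM in DN libraries, so that the males of both genotypes stood above the females. Id1 ran from 38.1 to 390.3 CPM in control and from 43.8 to 330.3 CPM in DN, and Id2 from 44.4 to 501 CPM and from 60.1 to 178 CPM. The log2 fold changes at 6 weeks were -0.33 ± 0.313 for Id3, -1.03 ± 0.325 for Id2 and -0.11 ± 0.343 for Id1, with adjusted p-values of 1 in edgeR. The difference of the DN effect between ages (12 weeks minus 6 weeks) was -2.39 for Id3 (adjusted p = 0.169 in edgeR) and -2.19 for Id1, and no gene of 5688 was called for it in edgeR (0%, 128 at an unadjusted p under 0.05, and 5 in DESeq2). Leaving out control male 6 weeks replicate 1 gave 3 calls for it. With the replicate block Id1 and Id3 were the 2 genes called for this difference, at -2.27 ± 0.312 and -2.41 ± 0.356 (adjusted p = 0.00254 and 0.00369 in edgeR), while Id2 was at -1.41 ± 0.315 (adjusted p = 0.413). Over both ages Id2 was at -1.75 ± 0.235, Id3 at -1.53 ± 0.227 and Id1 at -1.20 ± 0.261 (adjusted p = 4.39e-04, 0.00127 and 0.0430 in edgeR). In Fst-zero barcodes alone, Id2 and Id3 were not called over both ages (adjusted p = 0.285 and 0.492 in edgeR). That fit held 12 libraries of a subset cut by a gene of the rule, and a lost call there does not show a smaller change. Id1 was called over both ages in 7 of 14 alternatives and in 6 of 16 fits without 1 library, and not in barcode list A alone, without the term for the barcode list or in sums of at least 20 barcodes (adjusted p = 0.422, 0.127 and 0.0578 in edgeR).

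Of the activin, BMP and TGF-beta list 13 members outside the rule passed the filter. The 3 Id genes were the only ones called over both ages, all lower, as were 0.158% of all genes tested. Of the 13, 3 were above 0 and the median was -0.342, against -0.00342 over all genes tested. The share of all genes above 0 is given with the osmoprotection list below. Id4, the remaining member of the family, was at -0.79 ± 0.202 (adjusted p = 0.121 in edgeR), Smad7, an inhibitory SMAD that the pathway induces, at -0.50 ± 0.146 (adjusted p = 0.224), and the receptor Bmpr2 at -0.36 ± 0.259. Fst, a gene of the rule, is given without a test, with 1548 ± 821 CPM (SD, n = 8) in control and 2452 ± 1195 CPM in DN libraries.

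The levels of Sgk1, Tsc22d3, Id1 and Id3 in endothelial barcodes were above those in the thin limb, with means of 1430, 201, 812 and 1117 CPM against 76.3, 50.5, 134 and 350 CPM in the thin limb. In the thick ascending limb the means were 9.05, 16.8, 6.54 and 29.6 CPM, and the thin limb was above it for Sgk1 and Tsc22d3 in 15 of 16 libraries and for Id1 and Id3 in 16 of 16. Id2 was at 186 CPM in the thin limb, 234 CPM in the thick ascending limb and 301 CPM in endothelial barcodes. In the proximal tubule Id2 was highest, at 474 CPM, and the thin limb was above it in 0 of 16 libraries. The part of free RNA in the results of these genes was not tested.

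Osmoprotection was followed through 14 genes, all of which passed the filter. All 14 had a log2 fold change above 0 over both ages, against 49.3% of all genes tested, with a median of 0.44 against -0.00342, and 2 of them, Sgk1 and Slc6a12, were called higher (0.193% of all genes were). The immediate early and dissociation stress list, which shares Hspa1a, Hspa1b and Hspb1 with this one, had 14 of 18 tested genes above 0, a median of 0.256 and no call, and its part in the osmoprotection values was not tested. Slc6a12 imports the osmolyte betaine. Its level was 19.6 to 51.5 CPM (median 26.6) in control and 35.0 to 81.4 CPM (median 67.9) in DN libraries, which overlap, and at 12 weeks all 4 DN libraries, at 70.3, 72.3, 65.7 and 81.4 CPM, were above the control libraries, at 24.5, 28.8, 42.1 and 23.5 CPM (0.686% of all genes were higher without overlap at 12 weeks). Its log2 fold change was 1.17 ± 0.212 over both ages (edgeR, Benjamini-Hochberg adjusted p = 0.00874).

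Akr1b3, the aldose reductase that makes the osmolyte sorbitol from glucose, ran from 227 to 1113 CPM (median 334) in control and from 599 to 2173 CPM (median 781) in DN libraries. Its log2 fold change of 1.22 ± 0.288 had an adjusted p of 0.0790 in edgeR and was positive in 7 of 8 pairs of the same age, sex and replicate number. It overlaps Gm14546 on the opposite strand, and reads of both may be counted together. Control female 6 weeks replicate 2, at 1113 CPM, and control male 12 weeks replicate 1, at 631 CPM, stood within the DN range, and the next control library was at 405 CPM. Slc6a6, the taurine transporter, was at 0.46 ± 0.153 (adjusted p = 0.435 in edgeR), Slc5a3, the inositol transporter, at 0.50 ± 0.272 (adjusted p = 0.877), and the heat shock genes Hspa1b and Cryab at 0.63 ± 0.182 and 0.37 ± 0.146 (adjusted p = 0.224 and 0.652). Nfat5, which encodes the transcription factor that drives such genes, was at 0.02 ± 0.126, with 417 ± 219 CPM (SD, n = 8) in control and 392 ± 131 CPM in DN libraries.

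**Figure D3:**
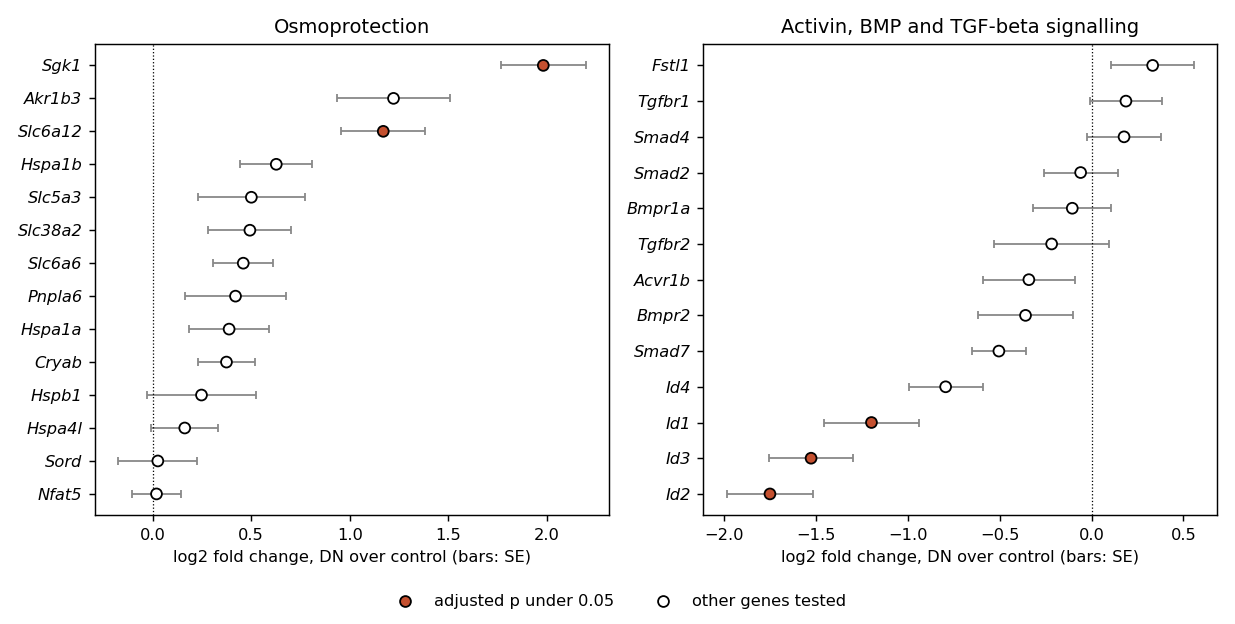
Log2 fold changes of DN over control over both ages (horizontal axis, bars are SE) are plotted for the 14 tested genes of the osmoprotection list and the 13 tested genes outside the rule of the activin, BMP and TGF-beta list, with filled points for an adjusted p under 0.05. All points of the first list lie above 0, led by Sgk1 at 1.98, and Id2, Id3 and Id1 lie lowest in the second, at -1.75, -1.53 and -1.20.

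Several further genes that rose were low in the other 3 sets of barcodes measured. Nptx1, a secreted pentraxin first known from neurons, had a mean of 80.4 CPM in the thin limb and at most 0.253 CPM in thick ascending limb, proximal tubule and endothelial barcodes. Zan, which encodes zonadhesin, had 66.4 CPM against at most 0.0806 CPM, and Rtn1, a reticulon of the endoplasmic reticulum, 85.8 CPM against at most 5.90 CPM. Tspan33, a tetraspanin that directs the protease ADAM10, had 153 CPM against at most 37.3 CPM. These levels describe the same barcodes that the rule chose and were not tested.

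Nptx1 ran from 2.16 to 213 CPM (median 18.1) in control and from 46.0 to 279 CPM (median 96.6) in DN libraries, with 1 control library, female 6 weeks replicate 2, within the DN range. Its log2 fold change was 2.07 ± 0.390 (edgeR, Benjamini-Hochberg adjusted p = 0.0120). Tspan33 at 12 weeks was at 67.8, 101, 130.1 and 88.2 CPM in control and at 135, 207, 208 and 220.4 CPM in DN libraries, without overlap, and its log2 fold change was 1.02 ± 0.189 at 12 weeks and 0.86 ± 0.132 over both ages (adjusted p = 0.0245 and 0.00173 in edgeR). Zan rose by 0.98 ± 0.175 and Rtn1 by 0.87 ± 0.145 over both ages (adjusted p = 0.00874 and 0.00425 in edgeR), each higher in DN in 8 of 8 pairs. Zan overlaps Ephb4 on the opposite strand, so reads of the latter could be counted with it.

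Slco2a1, the prostaglandin transporter, was at 10.3 to 43.2 CPM (median 19.1) in control and at 32.5 to 94.9 CPM (median 51.4) in DN libraries. Its log2 fold change was 1.49 ± 0.211 over both ages and 1.49 ± 0.291 at 12 weeks (edgeR, Benjamini-Hochberg adjusted p = 7.55e-04 and 0.0404). Small RNA genes overlap its locus on both strands, and the sources used here do not say if reads were counted by strand. Anxa3, an annexin of the tubule injury list, rose by 0.81 ± 0.172 and Napsa, an aspartic protease, by 0.67 ± 0.137 (adjusted p = 0.0352 and 0.0282 in edgeR).

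**Figure D4:**
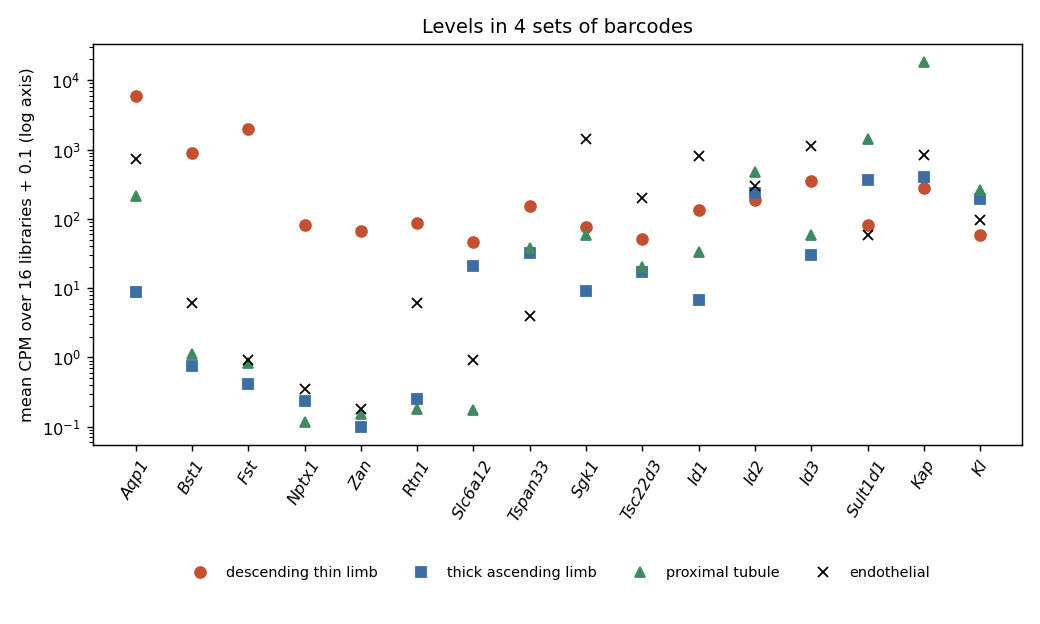
Mean levels over the 16 libraries (CPM plus a small offset, log axis) are plotted for 3 genes of the rule and 13 called genes in descending thin limb, thick ascending limb, proximal tubule and endothelial barcodes. Nptx1, Zan and Rtn1 are highest in the thin limb, whereas Sult1d1, Kap, Kl and Id2 are highest in the proximal tubule.

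Among the genes that fell over both ages, Kap and Kl are genes of other segments. Kap, the androgen-regulated protein of the proximal tubule, was at 0 to 1097 CPM (median 318) in control and at 0 to 400.1 CPM (median 30.2) in DN libraries, with a log2 fold change of -2.43 ± 0.394 (edgeR, Benjamini-Hochberg adjusted p = 0.00311). Its mean was 277 CPM in the thin limb against 18220 CPM in the proximal tubule and 826 CPM in endothelial barcodes, and the thin limb was above the endothelial level in 3 of 16 libraries. Kap in endothelial barcodes was 1307 ± 1574 CPM (SD, n = 8) in control and 346 ± 443 CPM in DN libraries. Kl, the FGF23 co-receptor klotho of the distal and proximal tubule, had 58.6 CPM in the thin limb, 190.4 CPM in the thick ascending limb and 259 CPM in the proximal tubule, and changed by -2.18 ± 0.394 (adjusted p = 0.00874 in edgeR). The part of free RNA in both was not tested.

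Tmem213, at -0.99 ± 0.206, had 187 CPM in the thin limb and 653 CPM in the thick ascending limb. It overlaps Atp6v0a4 on the opposite strand, and reads of the latter could be counted with it if strand was ignored. Tmem86a changed by -0.88 ± 0.186, Tcf7l2, a transcription factor of Wnt signalling, by -0.74 ± 0.157, and Dst, a cytoskeletal linker, by -0.71 ± 0.146 (adjusted p = 0.0327, 0.0352, 0.0352 and 0.0308 in edgeR, in this order with Tmem213 first). Tmem86a and Dst were lower in DN in all 8 pairs.

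The calls differed in how far they rested on single libraries. Without any 1 of the 16 libraries Sult1d1, Sgk1, Slco2a1, Id2, Id3, Zan, Rtn1 and Kap stayed called over both ages in 16 of 16 fits, and Nptx1, Slc6a12, Tsc22d3 and Kl in 15 of 16. Id1 stayed called in 6 of 16, Tmem213 in 6, Tmem86a and Tcf7l2 in 5 each and Anxa3 in 2. Other settings lost calls over both ages too. Without the barcode list term Rtn1, Nptx1, Tsc22d3, Tmem213, Tmem86a, Tcf7l2, Anxa3 and Id1 were not called. In barcodes with at most 1 UMI of other segments' genes Zan, Rtn1, Slc6a12, Tsc22d3, Tmem213, Tmem86a, Tcf7l2 and Anxa3 were not called. That fit left out the libraries with fewer than 10 such barcodes, and a lost call there does not show a smaller change. In the robust fit Kap, Kl, Nptx1, Tmem213 and Id1 were not called. The count of called genes over both ages was lowest, at 13, without control male 12 weeks replicate 2 and highest, at 35, without control female 6 weeks replicate 2. The 12-week calls of Tspan33 and Slco2a1 stayed in 9 and 3 of 16 fits. The count at 6 weeks was 5 without control female 6 weeks replicate 2 or control male 12 weeks replicate 2, and at 12 weeks it was 3 without control female 12 weeks replicate 1 and 10 without DN male 6 weeks replicate 2.

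The remaining functional lists held no call over both ages except Anxa3, and their medians are given as a description beside the -0.00342 of all genes. The 13 mitochondrially encoded subunits of oxidative phosphorylation, the machinery that makes ATP from oxygen, had a median of -0.204 with 0 of 13 above 0, and the 32 nuclear ones a median of -0.00175 with 16 above 0. Of the water, urea and ion transport genes outside the rule, 9 passed the filter, with 5 above 0 and a median of 0.0631. Aqp1, a gene of the rule, had 5576 ± 1135 CPM (SD, n = 8) in control and 6304 ± 1212 CPM in DN libraries, given without a test. The 13 junction genes had a median of -0.0146, among them Cdh16, the kidney cadherin, at 0.03, and Cldn8, a claudin of the distal nephron, at -0.41 (adjusted p = 0.909 in edgeR). Glucose uptake, glycolysis and polyol genes had a median of 0.242 (17 of 22 above 0), with Gapdh at 0.26 and Aldoa at 0.23.

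Of the tubule injury genes 13 of 18 were above 0 with a median of 0.291, and Spp1, which encodes osteopontin, was at 0.63 ± 0.221 (adjusted p = 0.477 in edgeR), from 11847 ± 6856 CPM to 17454 ± 6298 CPM (SD, n = 8 each). Among the immediate early genes, Jund was at -0.01. NRF2-responsive genes (8 of 15 above 0, median 0.0908), lipid and PPAR genes (8 of 16, -0.00167), matrix and integrin genes (10 of 20, 0.0102), growth factor, insulin and leptin receptor genes (3 of 14, -0.181) and antigen presentation, interferon and complement genes (5 of 6, 0.0974) held no call. The circadian clock list had 3 of 8 above 0 and a median of -0.226, with Nr1d1 at -0.85 ± 0.261 (adjusted p = 0.299 in edgeR) and Dbp at -0.57 ± 0.201 (adjusted p = 0.483). The p53 list had 7 of 8 above 0 and a median of 0.162, with Cdkn1a at 0.54 and Bax at 0.16. Thin limb markers outside the rule were above 0 in 2 of 8, with none called. Ptgds, a prostaglandin D synthase, was at 1.09 ± 0.266 (adjusted p = 0.0964 in edgeR, higher in 7 of 8 pairs), Cryab at 0.37 ± 0.146 (adjusted p = 0.652), Cdh13, a cadherin, at -0.82 ± 0.233 (adjusted p = 0.208) and Angpt2 at -0.36 ± 0.194 (adjusted p = 0.858).

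The DN effect over both ages was compared with that in 2 neighbouring segments of the same libraries, in 1 fit per pair with the library as a block. The filter on low counts took both sets of barcodes together. A gene near 0 in 1 set could therefore enter through the other set, and the counts of genes that differed partly follow from that filter. Against the thick ascending limb (2746 barcodes) 20 of 7813 genes differed (0.256%), 8 higher (0.102%) and 12 lower (0.154%) in the thin limb, with 545 at an unadjusted p under 0.05. The count was 9 without control male 6 weeks replicate 1 and 7 without DN male 12 weeks replicate 1. Sult1d1 rose by 1.67 ± 0.224 more in the thin limb (adjusted p = 3.15e-04 in edgeR), where the thick ascending limb, with 0.797% of its own genes called, showed 0.92. Id2 differed by -1.55 ± 0.305 (adjusted p = 0.0162 in edgeR) and was at -0.22 in the thick ascending limb. Sgk1 and Tsc22d3 differed by 1.54 ± 0.341 and 1.32 ± 0.294 (adjusted p = 0.0457 each in edgeR). Without any 1 library Sult1d1 kept this call in 16 of 16 fits, Id2 in 13, Sgk1 in 6 and Tsc22d3 in 4. Id2 lost it without control male 6 weeks replicate 1, DN female 12 weeks replicate 1 or DN male 12 weeks replicate 1.

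Further named genes differed from the thick ascending limb. Foxq1, a forkhead factor, differed by 2.07, Socs2, an inhibitor of cytokine signalling, by 2.78, and Mettl7a1 by 0.82, and Klk1, the kallikrein of the distal nephron, differed by -1.76, Lpin2, a lipin phosphatase, by -1.36, and Kl by -1.57 (adjusted p from 7.90e-04 to 0.0170 in edgeR over these 6 genes). Socs2 was at 0 to 21.6 CPM in control and 1.71 to 279 CPM in DN thin limb sums, with 27 of its 149 UMIs in DN female 12 weeks replicate 2, which had 10 barcodes, and its call was lost without that library (adjusted p = 0.083), control female 12 weeks replicate 2 (0.0582), DN male 6 weeks replicate 1 (0.102) or DN male 12 weeks replicate 1 (0.0782). The call of Mettl7a1 held in 13 of 16 such fits, being lost without control male 6 weeks replicate 1, DN male 6 weeks replicate 2 or DN male 12 weeks replicate 1. Klk1 had a mean of 281.5 CPM in the thin limb, 2607 CPM in the thick ascending limb and 631 CPM in endothelial barcodes. Its thin limb level was above the endothelial level in 1 of 16 libraries, and the part of free RNA in its difference was not tested. Angpt2 differed by -3.54, but had 2.27 CPM in the thick ascending limb and was at -0.36 in the thin limb, and its call was lost without DN male 12 weeks replicate 1 (adjusted p = 0.0601 in edgeR). Slc6a12, which was called in the thick ascending limb too, at 1.65, had a difference of -0.47 ± 0.415 (adjusted p = 0.884 in edgeR), and Tspan33 one of -0.01 ± 0.127. Id3 differed by -1.57 ± 0.409, which did not pass (adjusted p = 0.151 in edgeR).

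Against the proximal tubule (3946 barcodes) 93 of 8490 genes differed (1.1%), 49 higher (0.577%) and 44 lower (0.518%), with 809 at an unadjusted p under 0.05, and 56 differed without DN male 6 weeks replicate 1. Sult1d1 again rose more in the thin limb, by 2.17 ± 0.211 (adjusted p = 2.54e-07 in edgeR). Akr1b3 differed by 2.28 ± 0.341 (adjusted p = 2.21e-04 in edgeR), at -0.88 in the proximal tubule, where its mean was 46.9 CPM against 711 CPM in the thin limb. Id2 differed by -1.25 ± 0.247 (adjusted p = 0.00528 in edgeR) and Tsc22d3 by 1.41 ± 0.341 (adjusted p = 0.0297), whereas the difference of Sgk1, 0.74 ± 0.317, did not pass (adjusted p = 0.411). The call of Tsc22d3 held in 8 of 16 fits without 1 library, and those of Sult1d1, Akr1b3 and Id2 in 16. Sgk1 was itself called in the proximal tubule, at 1.34, where 2.93% of all genes were.

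Differences in the other direction included genes that rose in the proximal tubule. Ephx1, an epoxide hydrolase, rose by 3.59 there and was at 0.19 in the thin limb, a difference of -3.21 ± 0.326, and Agt, angiotensinogen, rose by 2.11 there and was at 0.24 in the thin limb, a difference of -1.73 ± 0.249. Serpinb6a differed by -1.40, with 1.38 in the proximal tubule and 0.03 in the thin limb, and Kng2 differed by -2.60. Above 0, like Sult1d1, were the differences of Cpe and Odc1, the rate-limiting enzyme of polyamine synthesis, at 4.25 and 1.55. The adjusted p ran from 3.51e-07 to 2.21e-04 in edgeR over these 6 genes. Cpe was low in the proximal tubule, with a mean of 6.10 CPM against 46.8 CPM in the thin limb. Kng2 did not pass the filter in the thin limb and was at 0.76 in the proximal tubule (adjusted p = 0.291). Odc1 fell by 1.47 in the proximal tubule and was at -0.10 in the thin limb.

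Sex and age were also compared. Between females and males 6 genes were called (0.105%), Xist, Hipk1 and Arrdc3 higher in females (0.0527%) and Eif2s3y, Ddx3y and Kap lower (0.0527%), and 447 had an unadjusted p under 0.05. Xist, the RNA of the inactive X chromosome, was at 0 in the 8 male libraries and at 705 to 1177 CPM in the female ones. Kap differed by -4.12 (adjusted p = 0.00116 in edgeR). Hipk1 and Arrdc3, at 0.83 and 1.11 (adjusted p = 0.0490 each in edgeR), were not called without the term for the barcode list, at 0.33 and 0.66, with 82 genes called in that fit. No gene was called between 12 and 6 weeks (0% in edgeR, 168 at an unadjusted p under 0.05, and 0 in DESeq2) or for the difference of the DN effect between the sexes (0%, 146 at an unadjusted p under 0.05, 0 in DESeq2 and 1 with the replicate block, the intercalated cell gene Atp6v1g3 at 4.84 ± 0.607).

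The chosen barcodes were not uniform. The planned split by Slc14a2 and Bst1 found 6 barcodes with the first alone and 700 with the second alone, and no library had 10 of each, so it gave no values. Fst divided them more evenly, with 480 barcodes that carried at least 1 Fst UMI and 396 without, and was chosen after the data were seen. The rule asks for at least 2 UMIs among Bst1, Slc14a2, Fst, Sptssb and Epha7, so barcodes without Fst had to hold another of these genes. Bst1 was in 76.7% of the Fst-positive and in 100% of the Fst-zero barcodes, with Fst and Bst1 together in 368. Fst-positive barcodes made up 17.2% to 87.5% (median 57.6%) of a control library and 31.9% to 72.4% (median 62.1%) of a DN library. What follows describes the sums of both kinds in the 9 libraries that had 10 of each, with no test.

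Of the water, urea and ion transport list without Aqp1, 5 of 8 genes were higher and 0 lower in Fst-positive barcodes in all 9 libraries, against 6.87% higher and 17.91% lower of all genes compared. Genes were compared if the mean of both kinds was at least 50 CPM. Slc9a3 and other genes low in 1 kind therefore entered only through the kind where they were high, so these counts partly follow from that filter. Slc9a3, the sodium-proton exchanger NHE3, had 97.3 ± 30.1 CPM (SD, n = 9) in Fst-positive and 12.98 ± 18.6 CPM in Fst-zero barcodes, and Slc4a11 had 607 ± 114 and 313 ± 81.7 CPM. The other 3 were the potassium channel gene Kcnj16, at means of 149.5 and 69.5 CPM, and the sodium pump genes Fxyd2, at 5630 and 2932 CPM, and Atp1b1, at 4945 and 3192 CPM. Outside that list, Car14, a membrane carbonic anhydrase, had 425 ± 156 CPM in Fst-positive and 8.19 ± 11.5 CPM in Fst-zero barcodes. The monocarboxylate carrier Slc16a7 had 109 ± 41.3 and 12.5 ± 9.61 CPM. Lypd2, Cox7a1, a subunit of cytochrome c oxidase, and Pcolce, an enhancer of collagen processing, were also higher in Fst-positive barcodes in all 9 libraries, at means of 858, 363 and 274 CPM against 183, 82.2 and 63.7 CPM. The same order in all 9 libraries was the condition for naming Car14, Slc16a7, Slc9a3, Lypd2, Cox7a1 and Pcolce.

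Fst-zero barcodes were higher in a second group of genes. Nr2e3, a nuclear receptor known from photoreceptors, had 292 ± 138 CPM in them and 4.04 ± 4.91 CPM in Fst-positive barcodes, and Cldn4, a claudin of tight epithelia, 135 ± 44.3 and 6.30 ± 8.65 CPM. Cpe, a carboxypeptidase that processes peptide hormones, had 117 against 2.81 CPM, Sorcs3, a sorting receptor, 110.2 against 3.16 CPM, Wnt8b, a Wnt ligand, 106 against 9.16 CPM, and Ndrg4 had 110.0 against 9.86 CPM. Aqp1 was higher in Fst-zero barcodes too, at 7617 ± 1752 against 4710 ± 962 CPM, as were Angpt2, at 394 against 205 CPM, and Epha7, at 85.7 against 22.5 CPM. All of these had the same order in each of the 9 libraries. For Nr2e3, Cldn4, Cpe, Sorcs3, Wnt8b and Ndrg4 this order was the condition for naming them. Aqp1 and Epha7 are genes of the rule, so their levels partly follow from it.

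**Figure D5:**
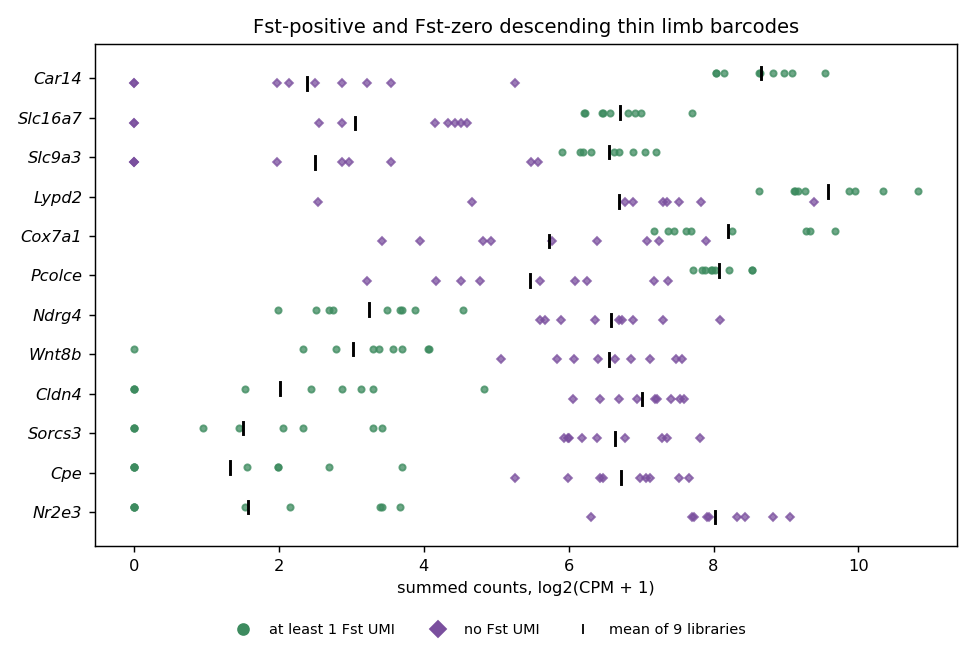
Levels of 12 genes in the sums of Fst-positive (circles) and Fst-zero (diamonds) barcodes are plotted on a log2(CPM + 1) axis for the 9 libraries with 10 of each, and bars mark the means. The upper 6 genes lie higher in Fst-positive barcodes in all 9 libraries and the lower 6 in Fst-zero barcodes. These 12 genes were picked from those with the same order in all 9 libraries.

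Over the 3406 genes with a mean of at least 50 CPM, 234 (6.87%) were higher and 610 (17.91%) lower in Fst-positive barcodes in each of the 9 libraries, with a median log2 ratio of -0.251. Of the nuclear oxidative phosphorylation genes 29 of 32 were higher in all 9 libraries, with a median of 0.833, and of the mitochondrial ones 12 of 13, with a median of 1.11. Of the junction genes 6 of 10 were lower in all 9 libraries, of the tubule injury genes 10 of 17 and of the immediate early and stress genes 7 of 15, with medians of -0.634, -0.598 and -0.711. The 4 principal cell markers compared had a median of -1.459, with 0 above 0. Single markers of thick ascending limb, immune and proximal tubule cells were at -0.957, -1.353 and -0.0195. Those of distal convoluted or connecting tubule and of intercalated cells were at 1.549 and 1.335. None of these markers had the same order in all 9 libraries, and their part in the split was not tested. The median UMIs per barcode ran from 3249 to 16190 in Fst-positive and from 2641 to 12530 in Fst-zero barcodes of a library and were higher in the former in 15 of 16 libraries, and the part of depth in the split was not tested. The median mitochondrial share was 8.46% to 16.1% in Fst-positive and 4.40% to 12.8% in Fst-zero barcodes and was higher in the former in each of the 16 libraries. The mitochondrial oxidative phosphorylation genes are counted in this share, so their order and the share are not separate results. The part of the mitochondrial share in the other differences was not tested.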

How the data were processed

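Single-cell RNA was counted in 16 libraries of mouse kidney, 1 per mouse. The authors deposited counts of UMIs per gene and barcode (31053 features), made with Cell Ranger 3.0.2 on mm10, as the submitters' processing notes and the study's methods have it. Kit versions differed between libraries and are not tied to single libraries, and the sources used here do not say if reads were counted by strand. Total UMIs per library ranged from 10510855 to 125551519, and counting error sets the precision of low genes.

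The members, gene lists and tests were chosen with earlier results of these data known. Barcodes were selected by the rule given at the start. Asking for 0 UMIs of Cubn, Slc5a12, Pecam1, Pdgfrb and Ptprc removed 5 to 31 barcodes per library that otherwise met the rule. Whether these were mixed cells was not tested, and no doublet caller was run. Thick ascending limb barcodes had at least 2 UMIs of Slc12a1 and none of Cubn, Slc5a12, Slc12a3, Aqp2, Pecam1, Pdgfrb and Ptprc, proximal tubule barcodes at least 2 of Cubn and none of Slc12a1, Slc12a3, Aqp2, Pecam1, Pdgfrb and Ptprc, and endothelial barcodes at least 2 of Pecam1 and at least 1 of Kdr and Emcn together.

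Raw counts were summed per library (at least 10 barcodes) and tested with the quasi-likelihood test of edgeR 4.0.16 (R 4.3.3, limma 3.58.1) after TMM scaling and a minimum count of 10, with terms for age by sex, barcode list and genotype within age (9 residual degrees of freedom, common biological coefficient of variation 0.192). Comparisons with other barcodes had the library as a block, and their filter on low counts took both sets of barcodes together. Adjusted p-values are by Benjamini-Hochberg over all genes tested, at 0.05. Shares were tested with exact two-sided permutation tests (Python 3.11.15, numpy 2.4.6, pandas 2.3.3, scipy 1.17.1).

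At 6 and 12 weeks, deviations of same-numbered libraries from their group means correlated at 0.37 and 0.337 in females (5688 genes). In males they correlated at 0.444 and 0.351. The labels do not say that replicate numbers pair mice, and the number served as a block only in an alternative fit. In females the number coincides with the barcode list. Fits with this block, DESeq2 1.42.0, other filters and gates, and each library left out were the alternatives. The robust form of the edgeR fit was tried before the default was set and stands as an added alternative.

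Named genes were those of the selection rule; per list up to 4 called members and 2 of highest level; up to 8 called genes each way over both ages and 5 at each age with a mean of at least 20 CPM, without Gm, Rik, sex-linked and rule genes; up to 4 each way by lowest p elsewhere; and up to 6 each way in the Fst split. The DN effect was also compared between Fst-positive and Fst-zero barcodes, which is not reported since the split uses a gene of the rule. Fits within each kind stand only among the added alternatives. Genes picked for the split had the largest folds among genes with the same order in all 9 libraries and a mean of at least 50 CPM. Other genes named, among them Akr1b3, Id4, Smad7, Nfat5, Napsa, Dst, Ube2g2 and Atp6v1g3, were chosen after their values were seen. On simulated counts (5484 genes) the fit over both ages called 85.6% of genes changed 2-fold and 100% of those changed 4-fold, with 7 false calls. The fit at 6 weeks called 42.2% and 100%, with 6 false calls, and that at 12 weeks 30% and 98.8%, with 7. The simulation changed only genes with higher expected counts and gave all genes the same spread. It held no effect of barcode list, sex or replicate number, so its rates need not hold for the real genes. The values of 1 listed marker are not reported here. Gene coordinates are from GENCODE M21 and promoter windows from RefSeq (GRCm38.p6).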

Additional observations from a re-analysis of the deposited data

Results flagged for a closer look

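In 9 of 56 groups of libraries examined, 1 library stood apart from the rest of its genotype by Dixon's test, where chance gives about 1 in 20. Nptx1 was at 212.5 CPM in control female 6 weeks replicate 2, with the next control library at 30.98 CPM. Tsc22d3 was at 82.36 CPM in control female 6 weeks replicate 1, against 39.56 CPM in the next control library of both ages and 15.86 CPM in the next at 6 weeks, and at 230.5 CPM in DN female 6 weeks replicate 1, against 78.83 CPM. Both of these Tsc22d3 libraries belong to barcode list B. Slco2a1 was at 43.17 CPM in control female 12 weeks replicate 2, and Zan at 154.9 CPM in DN female 12 weeks replicate 2. Id2 and Id1 were at 177.9 and 330.3 CPM in DN male 6 weeks replicate 1, above the next DN libraries at 102.5 and 155.4 CPM. Tspan33 was lowest in DN female 12 weeks replicate 1, at 135.2 CPM, with the next DN library of 12 weeks at 206.5 CPM.

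The DN effect differed between descending thin limb and thick ascending limb barcodes by the edgeR interaction test for the 8 genes named by lowest p in each direction, and also for Id2, Sgk1 and Tsc22d3, given in the comparison above. It was larger in the thin limb by 1.67 for Sult1d1, 2.07 for Foxq1, 2.78 for Socs2 and 0.82 for Mettl7a1, and the difference was -1.76 for Klk1, -1.36 for Lpin2, -3.54 for Angpt2 and -1.57 for Kl on the log2 scale. Against the proximal tubule the difference for the 8 genes named in the same way was 2.17 for Sult1d1, 4.25 for Cpe, 1.55 for Odc1, 2.28 for Akr1b3, -3.21 for Ephx1, -1.73 for Agt, -1.40 for Serpinb6a and -2.60 for Kng2.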

How the results depend on the processing

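Without a filter on low counts, 42 genes were called at 6 weeks, 77 at 12 weeks, 117 over both ages, 7 for the difference between ages, 23 for that between sexes, 70 between sexes, 52 between ages, 88 against the thick ascending limb and 185 against the proximal tubule. With the replicate block these counts were 8, 21, 51, 2 and 1 for the first 5, and DESeq2 gave 6, 20, 37 and 5 for the first 4 and 29 between sexes. Without the barcode list term 9 genes were called over both ages and 82 between sexes. Sums of at least 20 barcodes gave 5 at 6 and 3 at 12 weeks. Barcodes with at most 1 UMI of genes of other segments gave 16 at 6 weeks and 3 between sexes. The robust fit gave 1 between ages. Fst-positive barcodes gave 5, 13 and 35 at 6 weeks, 12 weeks and over both ages, and Fst-zero barcodes 3 at 12 weeks and 11 over both ages. These subsets were cut by a gene of the rule after the data were seen and held 11 and 12 libraries. Their counts cannot be set against each other or against the main fit. Causes were not tested.

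Leaving out 1 library gave 2 to 5 calls at 6 weeks, 3 to 10 at 12 weeks, 13 to 35 over both ages, 0 to 3 and 0 to 1 for the differences between ages and sexes, 3 to 14 between sexes, 0 to 1 between ages, 56 to 109 against the proximal tubule and 7 to 25 against the thick ascending limb. The share differences ran from -0.00411 to 0.419 percentage points over both ages, from 0.162 to 0.972 at 6 weeks and from -0.464 to 0.248 at 12 weeks, the last turning also at 0.0508.

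At 6 weeks Id3 and Id1 turned to 0.11 and 0.56 without control male 6 weeks replicate 1, Id1 to 0.23 without DN male 6 weeks replicate 2, and Id3 and Id1 to 0.14 and 0.17 in Fst-zero barcodes, where Tmem213 at 12 weeks was at 0.34. The Slc6a12 difference from the thick ascending limb turned to 0.22 without DN male 12 weeks replicate 1, and that from the proximal tubule to -0.96 and -0.94 without control or DN female 12 weeks replicate 2. With single libraries left out, the lowest 6-week values were -0.58 for Id3 and -0.48 for Id1, the lowest Slc6a12 difference from the thick ascending limb was -0.68 and the highest from the proximal tubule 1.69. Over both ages Id2 and Id3 lost their calls in Fst-zero barcodes and Sgk1 in barcode list B alone. These fits held 12 and 4 libraries, and a lost call there does not show a smaller change. Sult1d1 kept its call in all 14 alternatives, Id1 in 7 (lost, among others, without the barcode list term, with sums of at least 20 barcodes and in list A alone) and Anxa3 in 4 (lost also in DESeq2). The block changed no call of another named gene beyond those given. Libraries with 10 to 29 thin limb barcodes limit what low genes can show.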
